A study of Mus musculus with 13 samples.

Results

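The 6 genes described here encode the reelin signalling pathway and the astrotactins of migrating cerebellar granule cells: Reln, Dab1, Vldlr, Lrp8, Astn1 and Astn2. They were taken by gene symbol from a table of read counts for 53653 genes, and all 6 were present and passed the filter on low counts. The RNA-seq data comprised 13 libraries, each from tumour cells of a mouse medulloblastoma (a cerebellar tumour) that had been sorted for GFP. All mice carried SmoM2, an active form of Smoothened that turns on Sonic Hedgehog signalling. Of the libraries, 5 came from primary cerebellar tumours with SmoM2 alone (control primary, replicates 3 to 7, mice of 6 to 16 weeks). A further 4 came from primary tumours with SmoM2 and the Kmt2d knockout, given in the protocol as Kmt2dCf/Cf (KO primary, replicates 3, 4, 6 and 7, mice of 5 to 8 weeks). The last 4 came from spinal metastases of SmoM2, Kmt2d knockout mice (KO metastasis, replicates 3, 4, 6 and 7, the same age range). The sources used here do not give the promoter that drives recombination, nor which libraries share a mouse, so the p-values measure only the spread between these libraries.

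Reelin is a large secreted glycoprotein that positions migrating neurons. It binds the lipoprotein receptors VLDLR and ApoER2 (the product of Lrp8), which cluster and bring the intracellular adaptor Dab1 to Src-family kinases. In the developing cerebellum granule cells are a source of reelin, and Purkinje cells answer it through both receptors and Dab1. Astrotactin 1 is a neuronal membrane protein that granule neurons use to grip glial fibres as they migrate, and astrotactin 2 binds it and controls its amount at the cell surface.

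The results turn on the receptor gene Vldlr, so both of its start-site windows are printed, beside the most upstream of 3 windows of the other receptor and the 1 window of the ligand. RefSeq windows of 300 bases (250 before and 50 after a start) were matched for 6 of 6 genes on GRCm38.p6. They are written 5′ to 3′ on the gene's strand. Capitals mark CANNTG, the E-box letters bound by basic helix-loop-helix factors, the family of Atoh1 and Neurod1, searched on both strands (the motif is its own reverse complement).
Vldlr, chr19:27216234-27216533, plus strand: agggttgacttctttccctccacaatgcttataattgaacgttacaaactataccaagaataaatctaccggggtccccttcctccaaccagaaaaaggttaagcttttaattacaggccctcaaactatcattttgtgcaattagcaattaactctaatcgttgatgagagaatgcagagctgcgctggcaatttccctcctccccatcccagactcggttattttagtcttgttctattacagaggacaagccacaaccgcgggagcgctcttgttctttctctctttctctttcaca
Vldlr, chr19:27216770-27217069, plus strand: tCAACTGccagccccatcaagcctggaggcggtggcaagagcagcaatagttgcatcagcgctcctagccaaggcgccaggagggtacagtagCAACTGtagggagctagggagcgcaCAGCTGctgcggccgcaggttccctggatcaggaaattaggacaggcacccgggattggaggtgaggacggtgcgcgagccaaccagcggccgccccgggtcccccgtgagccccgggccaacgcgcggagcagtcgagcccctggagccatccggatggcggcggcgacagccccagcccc
Lrp8, chr4:107802635-107802934, plus strand: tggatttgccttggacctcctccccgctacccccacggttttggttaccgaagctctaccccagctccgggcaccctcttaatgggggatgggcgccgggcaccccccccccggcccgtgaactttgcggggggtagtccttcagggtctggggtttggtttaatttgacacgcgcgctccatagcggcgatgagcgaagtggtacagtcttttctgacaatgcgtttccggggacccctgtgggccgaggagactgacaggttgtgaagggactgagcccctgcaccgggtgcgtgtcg
Reln, chr5:22344656-22344955, minus strand: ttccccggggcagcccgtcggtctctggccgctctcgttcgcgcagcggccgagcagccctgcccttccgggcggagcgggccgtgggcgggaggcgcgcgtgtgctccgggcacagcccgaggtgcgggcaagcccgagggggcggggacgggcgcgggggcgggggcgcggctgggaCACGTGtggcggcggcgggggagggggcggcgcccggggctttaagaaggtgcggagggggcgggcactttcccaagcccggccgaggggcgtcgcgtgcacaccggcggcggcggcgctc
The upstream Vldlr window held 0 E-boxes, 8 CG dinucleotides and 43% G or C. The downstream Vldlr window held 3 E-boxes, 23 CG dinucleotides and 68% G or C. The Lrp8 window shown held 0 E-boxes and 21 CG dinucleotides. The other 2 Lrp8 windows, not printed, held 4 and 2 E-boxes with 5 and 4 CG dinucleotides, so windows of both receptor genes ranged from none to several E-boxes. The Reln window held 1 E-box (CACGTG) and 47 CG dinucleotides. Of all 32851 windows of this length 72.3% held an E-box, and the median number of CG dinucleotides was 7. The Gli-binding letters GACCACCCA, searched on both strands, were in none of the windows of the 6 genes and in 0.253% of all windows. These matches describe the letters of the windows only.

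Library totals ranged from 23.5 to 41.4 M counts, and the 6 genes drew between 146 and 10932 counts per library. Kmt2d, the gene knocked out, stood at 125 ± 36.7 CPM (read counts scaled to library size with TMM factors; SD, n = 5) in control primary, 116 ± 35.7 in KO primary and 115 ± 11.2 in KO metastasis libraries. These counts span the whole gene and do not check the deletion (edgeR adjusted p = 0.956 and 0.945 against control primary). Olfactory and vomeronasal receptor genes, silent in cerebellum, drew 349 to 1752 CPM in control primary 3, KO primary 7 and KO metastasis 6 and 7, and 6.08 to 83.5 CPM in the other libraries. Per kilobase of exon, that background equalled 37.3% of the Dab1 level in control primary 3 and 5.85% to 9.80% of it in the other 3 of those libraries. For Vldlr it came to 7.97% in control primary 3 and 2.03% or less elsewhere. The controls numbered 5, 6 and 7 had Xist levels of 330 to 483 CPM, and the other 10 libraries had 0.913 CPM or less, so sex was not balanced between the groups.

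Of the 6 genes, Vldlr was the 1 that rose in primary tumours with the Kmt2d knockout, 3.45-fold above control primary libraries. The 5 others were not called (edgeR adjusted p below 0.05 over all genes). In that comparison 2.93% of 22265 tested genes were called, 1.15% higher and 1.78% lower. Vldlr, Astn2, Reln and Lrp8, 4 of the 6, had an unadjusted edgeR p below 0.05 there, as did 13.6% of all genes. In KO metastases against control primaries Vldlr was again the 1 gene called, 2.78-fold higher, where 3.08% of genes were called, 1.06% higher and 2.02% lower. Vldlr and Astn2, 2 of the 6, had an unadjusted edgeR p below 0.05, as did 14.2% of all genes. None of the 6 was called between KO metastases and KO primaries, where the call was made for 0.00449% of genes. None reached an unadjusted edgeR p below 0.05 there, which 3.23% of genes did, and DESeq2 and limma voom also called 0 of the 6. The median log2 changes of the 6 genes were 0.23, -0.24 and 0.02 for KO primary against control primary, metastasis against KO primary and metastasis against control primary, beside -0.053, -0.004 and -0.039 over all genes. The 2 comparisons with control primaries share those 5 libraries and are not independent. Simulated 2-fold changes were recovered in 38% of genes for KO primary against control primary and in 32% for KO metastasis against KO primary, so a missed call does not show equal levels. Since these are sorted cells measured in bulk, fewer cells expressing a gene and less RNA per cell cannot be told apart.

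**Figure D1:**
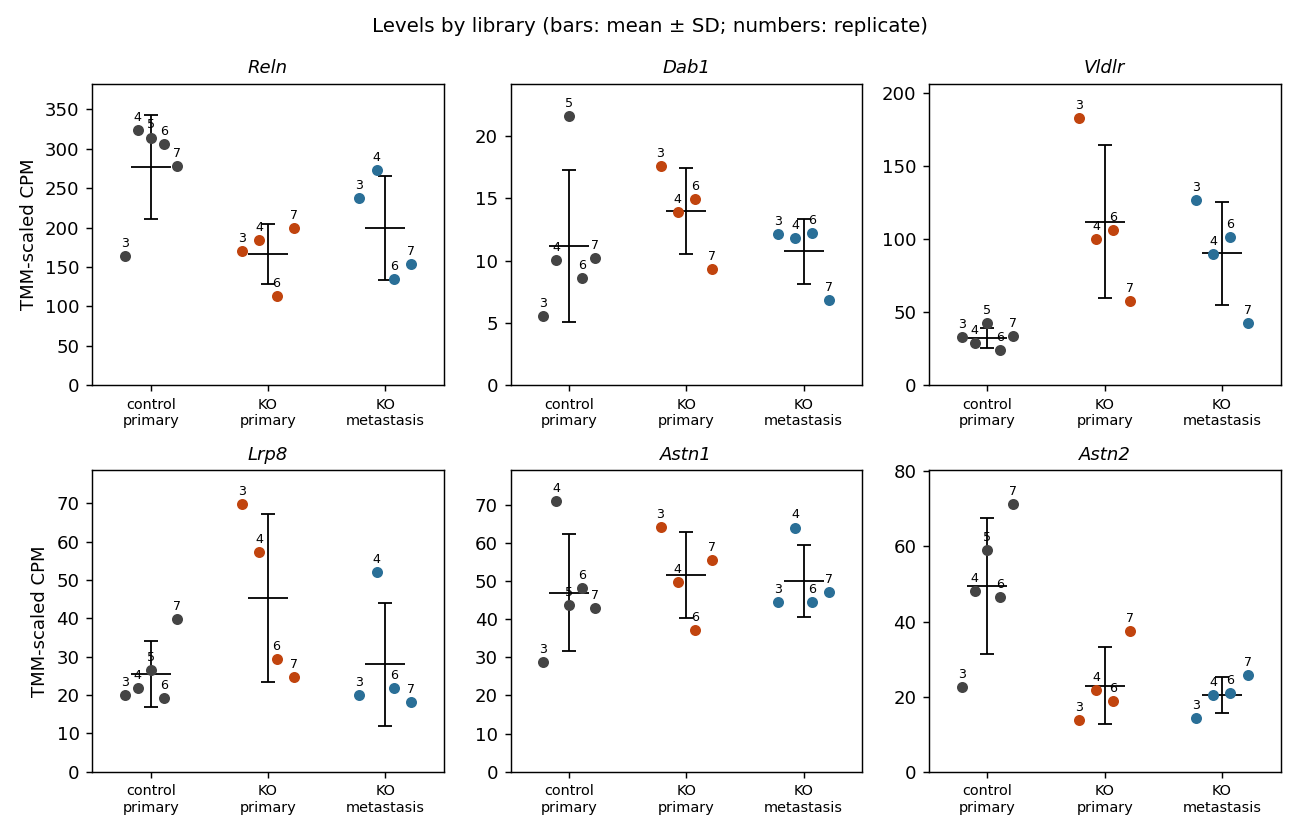
TMM-scaled CPM of the 6 genes in each of the 13 libraries, by group, with the replicate number above each point and the mean ± SD as bars; each axis starts at 0. The 4 KO primary libraries lie above all 5 control primary libraries for Vldlr, between 57.3 and 183 CPM against 23.9 to 42.5 CPM, and the groups overlap for the other 5 genes.

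Vldlr (chromosome 19, 27216484 to 27254231, plus strand, GRCm38, protein coding, ENSMUSG00000024924.14) codes for the very low density lipoprotein receptor. It had levels of 33.1, 29.1, 42.5, 23.9 and 33.7 CPM in the control primaries numbered 3 to 7. The KO primaries numbered 3, 4, 6 and 7 had 183, 100.4, 106 and 57.3 CPM. Every KO primary library was above every control, a separation that 7.42% of tested genes showed in either direction, 3.57% higher and 3.85% lower. Mean Vldlr was 32.4 ± 6.84 CPM in controls and 112 ± 52.4 CPM in KO primaries (SD, n = 5 and 4). On the log2 scale this was a rise of 1.79 with an SE of 0.328 (edgeR adjusted p = 0.00892). In the metastases numbered 3, 4, 6 and 7 it reached 127, 89.8, 102 and 42.4 CPM. The first 3 of these were above all controls, and KO metastasis 7 was level with control primary 5, the highest control. None of the 6 genes separated metastases from control primaries fully, where 6.82% of genes did (2.81% higher, 4.01% lower), and none separated metastases from KO primaries, where 1.72% did (0.683% higher, 1.04% lower). The mean of 90.2 ± 35.4 CPM gave a log2 change of 1.48 against control primary (SE 0.327, edgeR adjusted p = 0.0253) and of -0.31 against KO primary (SE 0.343, adjusted p = 0.9997). Within each knockout group the lowest Vldlr level was in replicate 7 and the highest in replicate 3.

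The rise of Vldlr in KO primary libraries was called without any 1 library, with edgeR adjusted p-values of 0.00351 to 0.0367 and log2 changes of 1.43 (without KO primary 3) to 2.02 (without KO primary 7). The call in metastases was lost in 6 of 13 such fits: without control primary 4, 6 or 7 (edgeR adjusted p = 0.0776, 0.0732 and 0.0624) and without KO metastasis 3, 4 or 6 (0.107, 0.064 and 0.0726). Without the 4 libraries of high receptor background both log2 changes were larger, 2.03 and 1.76 (edgeR adjusted p = 0.00108 and 0.00512). With only the 2 controls of low Xist level, the changes were 1.93 and 1.63 and neither was called (edgeR adjusted p = 0.183 and 0.306).

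Lrp8 (chromosome 4, 107802261 to 107876840, plus strand) codes for ApoER2, the other reelin receptor. It had levels of 19.9, 21.8, 26.5, 19.3 and 39.9 CPM in the control primaries numbered 3 to 7 and 69.9, 57.4, 29.3 and 24.7 CPM in the KO primaries numbered 3, 4, 6 and 7. KO primary 3 and 4 were above every control, and KO primary 6 and 7 lay within the control range. The means of 25.5 ± 8.53 and 45.3 ± 21.8 CPM differed by 0.83 on the log2 scale without a call (SE 0.374, edgeR adjusted p = 0.343). In the metastases numbered 3, 4, 6 and 7 Lrp8 reached 20.0, 52.01, 21.8 and 18.3 CPM. Replicate 4 stood far above the other metastases, which lay within the control range or just below it. The metastasis mean of 28.01 ± 16.1 CPM was 0.14 above control primary (SE 0.375, adjusted p = 0.969) and 0.69 below KO primary on the log2 scale (log2 change -0.69, SE 0.397, edgeR adjusted p = 0.9997).

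Reln (chromosome 5, 21884454 to 22344702, minus strand), the ligand gene, had levels of 163.5, 324, 314, 306 and 279 CPM in the control primaries numbered 3 to 7. In the KO primaries numbered 3, 4, 6 and 7 it reached 170.5, 184, 113 and 199.7 CPM. All 4 KO primary libraries were below control primary 4 to 7, but control primary 3, a library of high receptor background, lay among them. The means of 277 ± 65.8 and 167 ± 37.8 CPM gave a log2 change of -0.73 without a call (SE 0.253, edgeR adjusted p = 0.166). Without control primary 3 the log2 change was -0.87 (edgeR adjusted p = 0.0373), and without all 4 libraries of high background -0.96 (adjusted p = 0.00835). DESeq2 and limma voom called it as well (adjusted p = 0.0299 and 0.00178). With only the 2 controls of low Xist level the log2 change was -0.55 (edgeR adjusted p = 0.882).

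In the metastases numbered 3, 4, 6 and 7 Reln reached 238, 273, 134 and 154 CPM, a mean of 199.8 ± 66.2 CPM. Replicates 3 and 4 were above every KO primary library, and replicates 6 and 7, both of high receptor background, were not. The log2 changes were 0.26 against KO primary (SE 0.263, edgeR adjusted p = 0.9997) and -0.47 against control primary (SE 0.251, adjusted p = 0.447). Without the libraries of high background the change against KO primary was 0.71 (edgeR adjusted p = 0.419). Of the 23738 bases of annotated Reln exon, 246 overlap an antisense gene, Gm10475. The exons of the other 5 genes overlapped no other annotated gene.

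Dab1 (chromosome 4, 103619359 to 104744844, plus strand), the adaptor that both receptors need to pass the signal on, had the lowest levels. It had levels of 5.55, 10.04, 21.6, 8.60 and 10.2 CPM in the control primaries numbered 3 to 7 and 17.6, 13.9, 14.97 and 9.32 CPM in the KO primaries numbered 3, 4, 6 and 7. The groups overlapped, with control primary 5 above every KO library. The means of 11.2 ± 6.10 and 13.9 ± 3.46 CPM differed by 0.32 on the log2 scale, without a call (SE 0.336, edgeR adjusted p = 0.855). In the metastases numbered 3, 4, 6 and 7 it reached 12.1, 11.8, 12.2 and 6.85 CPM, a mean of 10.7 ± 2.59 CPM. That gave log2 changes of -0.38 against KO primary and -0.06 against control primary (SE 0.356 and 0.338, edgeR adjusted p = 0.9997 and 0.984). The lowest library of each group was 1 of high receptor background.

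**Figure D2:**
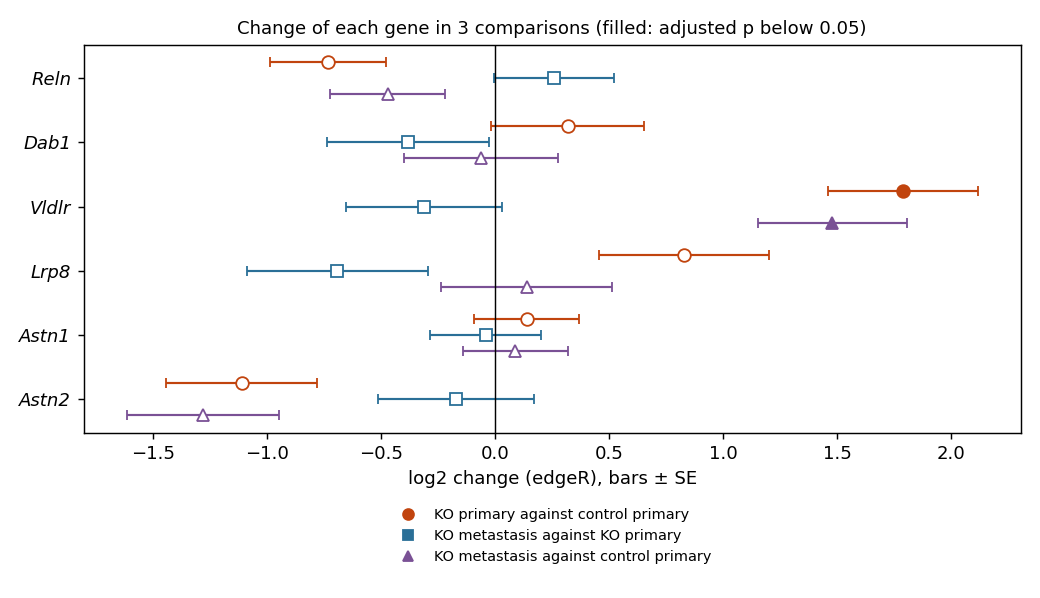
Log2 change of each gene in 3 comparisons, from edgeR, with bars of 1 SE; filled symbols have an adjusted p below 0.05. The filled symbols are the changes of Vldlr against control primary, 1.79 in KO primary and 1.48 in KO metastasis libraries; Reln and Astn2 lie left of 0 in both of these comparisons without a call.

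Astn2 (chromosome 4, 65380803 to 66404611, minus strand), which codes for the regulator of astrotactin 1 at the cell surface, had levels of 22.5, 48.2, 59.1, 46.5 and 71.4 CPM in the control primaries numbered 3 to 7. In the KO primaries numbered 3, 4, 6 and 7 it reached 13.7, 21.7, 18.9 and 37.5 CPM, and in the metastases of the same numbers 14.2, 20.6, 21.04 and 25.8 CPM. All 8 knockout libraries were below control primary 4 to 7, and control primary 3 lay within the knockout range. The mean went from 49.5 ± 18.1 CPM to 22.9 ± 10.2 and 20.4 ± 4.75 CPM. Against control primary the log2 changes were -1.11 in KO primary (SE 0.332, edgeR adjusted p = 0.102) and -1.28 in KO metastasis libraries (SE 0.334, edgeR adjusted p = 0.0555). Both fell short of the threshold. Metastases and KO primaries differed by -0.17 (SE 0.342, edgeR adjusted p = 0.9997).

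The call on Astn2 depended on the method and on which libraries were fitted. With all 13 libraries DESeq2 called it in KO primaries and metastases against control primaries (adjusted p = 0.0103 and 0.00287), as did limma voom (adjusted p = 0.000665 and 0.00424). Without control primary 3 the log2 changes were -1.29 and -1.46 and both were called (edgeR adjusted p = 0.0183 and 0.009), as they were without all 4 libraries of high background (-1.62 and -1.68, edgeR adjusted p = 0.00232 and 0.0066). In the other direction, with only the 2 controls of low Xist level they were -0.64 and -0.76 (edgeR adjusted p = 0.876 and 0.791). These controls included replicate 3. Without KO primary 7, the highest of its group, the changes were -1.45 and -1.27 (edgeR adjusted p = 0.0311 and 0.0371).

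Astn1 (chromosome 1, 158362273 to 158691781, plus strand), the adhesion receptor itself, had levels of 28.8, 71.0, 43.8, 48.1 and 42.9 CPM in the control primaries numbered 3 to 7. The KO primaries numbered 3, 4, 6 and 7 had 64.1, 49.7, 37.1 and 55.5 CPM, and the metastases of the same numbers 44.4, 64.03, 44.5 and 47.2 CPM. The controls spanned the range of both knockout groups. The means were 46.9 ± 15.3, 51.6 ± 11.3 and 50.02 ± 9.43 CPM, and the log2 changes were 0.14, -0.04 and 0.09 for KO primary against control primary, metastasis against KO primary and metastasis against control primary. Their SEs were 0.231, 0.244 and 0.231 (edgeR adjusted p = 0.943, 0.9997 and 0.965).

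Levels of different genes were compared per kilobase of annotated exon. In control primaries Reln stood highest at 11.7 ± 2.77 CPM per kb and Astn2 next at 9.99 ± 3.65, with ranges that overlapped. Astn1 at 4.77 ± 1.56, Vldlr at 3.22 ± 0.680 and Lrp8 at 2.42 ± 0.812 CPM per kb followed, each overlapping its neighbour in this order, and Dab1 was last at 1.42 ± 0.772 and overlapped Lrp8. In KO primaries Vldlr stood at 11.1 ± 5.21 CPM per kb, above Reln at 7.02 ± 1.59, but the ranges overlapped (5.69 to 18.2 and 4.76 to 8.41). Astn1, Astn2 and Lrp8 lay together there, at 5.24 ± 1.15, 4.63 ± 2.06 and 4.31 ± 2.08 CPM per kb. In metastases Vldlr at 8.96 ± 3.52 and Reln at 8.42 ± 2.79 CPM per kb overlapped as well, ahead of Astn1 at 5.08, Astn2 at 4.11 and Lrp8 at 2.66. Dab1 was below every Lrp8 library in both knockout groups, at 1.18 to 2.23 and 0.866 to 1.54 CPM per kb. The annotated exons of Reln cover 23738 bases, against 11699 bases in its longest coding transcript. Scaled by each gene's longest coding transcript, Reln led in all 3 groups, at 23.7, 14.3 and 17.1 CPM per kb. Vldlr was next in both knockout groups, at 14.0 and 11.3. On this scale Lrp8 stood above Astn2 in both knockout groups, with overlapping ranges. The means were 6.84 against 4.63 CPM per kb in KO primaries and 4.23 against 4.11 in metastases.

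**Figure D3:**
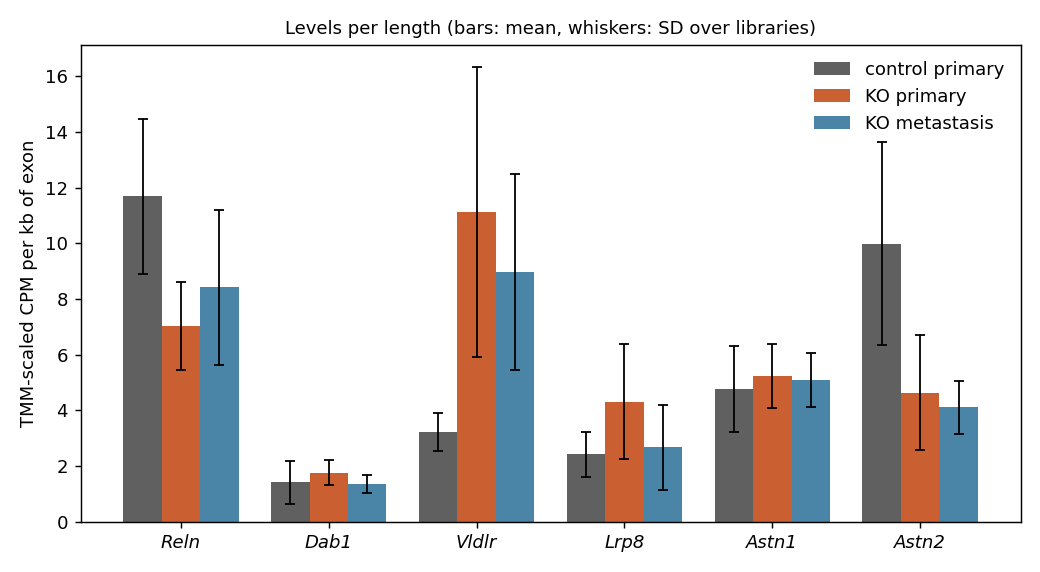
Mean TMM-scaled CPM per kilobase of annotated exon for the 6 genes in the 3 groups, with whiskers of 1 SD over libraries; the axis starts at 0. Vldlr goes from 3.22 in control primary to 11.1 in KO primary and 8.96 in KO metastasis libraries, while Reln and Astn2 have their highest bars in control primary.

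The balance between partners within a library is given as a description, with no test. The share of other gene pairs that separate the groups alike was not counted. The ratio of Vldlr to Lrp8 per kilobase was 1.74, 1.395, 1.67, 1.29 and 0.882 in control primary 3 to 7. It was 2.74, 1.83, 3.79 and 2.42 in KO primary 3, 4, 6 and 7 and 6.63, 1.80, 4.87 and 2.42 in KO metastasis 3, 4, 6 and 7. All 8 knockout libraries had a higher share of Vldlr than any control, although KO metastasis 4 was close to control primary 3. The metastases spread most widely. The summed level of both receptors was 4.21 to 7.14 CPM per kb in controls, 8.04 to 24.9 in KO primaries and 5.95 to 14.5 in metastases, where KO metastasis 7 lay within the control range.

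For the astrotactins, the ratio of Astn1 to Astn2 was 0.646, 0.742, 0.373, 0.522 and 0.303 in control primary 3 to 7. It was 2.36, 1.15, 0.993 and 0.746 in KO primary 3, 4, 6 and 7 and 1.58, 1.57, 1.07 and 0.924 in KO metastasis 3, 4, 6 and 7. Every knockout library was above every control, control primary 3 included, although KO primary 7 was close to control primary 4. Reln to Dab1 had a ratio of 4.85 to 11.9 in controls, 2.51 to 7.14 in KO primaries and 3.67 to 7.72 in metastases, with overlap. By the length of the longest coding transcript the median Vldlr to Lrp8 ratio was 1.11, 2.05 and 2.90 in the 3 groups and the median Astn1 to Astn2 ratio 0.708, 1.46 and 1.79.

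**Figure D4:**
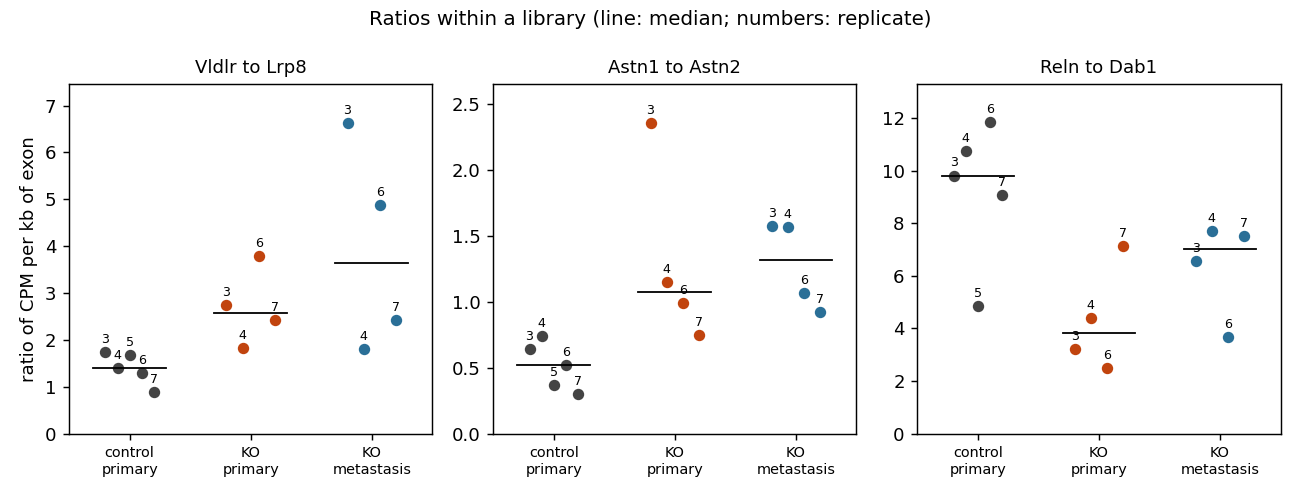
Ratios of CPM per kilobase of exon between 2 genes of the same library, by group, with the replicate number above each point and a line at the group median; axes start at 0. The 8 knockout libraries have a Vldlr to Lrp8 ratio of 1.80 to 6.63 against 0.882 to 1.74 in controls, and an Astn1 to Astn2 ratio of 0.746 to 2.36 against 0.303 to 0.742.

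The genes whose profile over the 13 libraries was most like that of each member were found among 10338 genes with a mean of at least 5 CPM. Likeness was the root mean square difference of log2 CPM after each gene was centred on its own mean; libraries share groups, depth and background, so this is a description. For Vldlr (SD 0.906 over libraries on that scale) they were Bcl11b, Pqlc1 and Jdp2, with differences of 0.343, 0.345 and 0.36. Bcl11b, a zinc finger transcription factor, stood at 14.7 ± 7.60, 55.8 ± 24.6 and 42.6 ± 19.2 CPM in control primary, KO primary and KO metastasis libraries. For Dab1 (SD 0.509) they included Ptch1, which codes for a Hedgehog receptor, at 0.213 and Vegfa at 0.257. Ptch1 stood at 417 ± 158, 593 ± 139 and 480 ± 113 CPM in the 3 groups. For Reln (SD 0.483) they were Tnik, Smpd3 and Trim67 at 0.187, 0.218 and 0.221, and for Astn2 (SD 0.747) Tyro3, Eml5 and Schip1 at 0.22, 0.237 and 0.282. Tyro3, a receptor tyrosine kinase, stood at 46.4 ± 16.4, 23.1 ± 8.08 and 22.9 ± 3.91 CPM. Astn1 (SD 0.335) had Hif1an, Foxj3 and Adgrl2 at 0.122, 0.134 and 0.142. The differences were widest for Lrp8 relative to its SD of 0.636, with Capn1, Ifit2 and Plcb3 at 0.351, 0.377 and 0.387.

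Around the 6 genes, 7 lists of pathway genes and relatives held 81 genes, all tested. In KO primary against control primary 2 rose, 13 fell and 66 were not called. In KO metastasis against control primary 2 rose, 7 fell and 72 were not called. Between metastases and KO primaries 0 were called in the main edgeR fit (all libraries, TMM scaling). Over all tested genes, 1.15% were called higher and 1.78% lower in KO primaries against control primaries. In metastases against control primaries the shares were 1.06% and 2.02%. The counts of each pathway list below are to be read against these shares. The lists were chosen with earlier results of these data known, so the counts are a description. In the list of other receptor ligands and reelin-cleaving proteases, 3 of 9 fell in KO primaries, with a median log2 change of -0.91 against -0.053 for all genes. Clu, clusterin, a ligand of both receptors, fell from 28.5 ± 8.91 CPM in controls to 6.11 ± 1.69 CPM in KO primaries, with a log2 change of -2.22 and an SE of 0.323 (edgeR adjusted p = 0.00202). It stood at 6.71 ± 3.10 CPM in metastases and fell there too (log2 change -2.09, edgeR adjusted p = 0.00312), the 1 gene of this list called in that comparison. Apoe, apolipoprotein E, fell from 178 ± 61.3 to 24.7 ± 14.8 CPM in KO primaries (log2 change -2.85, edgeR adjusted p = 0.0217, lost in 3 of 13 fits without 1 library). It stood at 149 ± 117 CPM in metastases, a log2 change of 2.60 from KO primaries that was not called (edgeR adjusted p = 0.9997, DESeq2 adjusted p = 0.0298).

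Adamts4, a protease that cleaves reelin, fell from 11.4 ± 4.34 to 1.56 ± 1.54 CPM in KO primaries (log2 change -2.87, edgeR adjusted p = 0.0355), a call lost in 6 of the 13 fits without 1 library. Apoe and Adamts4 are also expressed by glia and macrophages. Oligodendrocyte markers summed to 151 to 427 CPM in control primaries, 76.9 to 111 in KO primaries and 182 to 2026 in metastases. Microglia and macrophage markers summed to 9.50 to 76.3, 3.97 to 16.2 and 12.3 to 232 CPM. In KO metastasis 6 and 7, both of high receptor background, the oligodendrocyte sums were 2026 and 867 CPM and the microglia and macrophage sums 232 and 178. In KO metastasis 3 and 4 they were 182 and 324, and 42.6 and 12.3 CPM. Apoe ranged from 25.1 to 264 CPM over the metastases. The part of either cell type in these changes was not tested.

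Among genes of receptor turnover, trafficking and co-reception 3 of 10 fell in KO primaries and 2 of 10 in metastases against control primaries, and none rose (median log2 changes -0.26 and -0.33). Dlg4, the postsynaptic scaffold PSD-95 that couples ApoER2 to glutamate receptors, fell from 34.1 ± 6.29 CPM to 10.1 ± 2.64 and 9.66 ± 2.12 CPM (log2 changes -1.75 and -1.82, edgeR adjusted p = 8.27e-04 and 6.93e-04). Efnb3, an ephrin B ligand of the family that acts as reelin co-receptor, fell from 56.1 ± 14.5 to 17.8 ± 6.26 CPM in KO primaries (edgeR adjusted p = 0.00785). Mapk8ip1, a JNK scaffold that binds the ApoER2 tail, fell from 160.1 ± 19.0 to 81.8 ± 8.27 and 79.7 ± 24.8 CPM (edgeR adjusted p = 0.0145 and 0.0117, lost in 3 and 1 of the 13 fits without 1 library).

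Downstream, the kinases, adaptors and degradation factors of Dab1 were nearly all uncalled, with 1 of 20 lower in KO primaries and 0 of 20 called in metastases against control primaries by edgeR. The medians were 0.06 and 0.04. Dab2ip, a Ras GTPase-activating protein, fell from 49.7 ± 8.15 to 27.2 ± 6.07 CPM in KO primaries (edgeR adjusted p = 0.0408, lost in 8 of 13 fits without 1 library). Limk1, the kinase of cofilin, stood at 125 ± 28.2 CPM in control primaries and 62.3 ± 35.2 in metastases without a call (edgeR adjusted p = 0.1965). Of 11 Lis1, doublecortin and Cdk5 effectors, Dclk1 rose and Cdk5r1 fell in KO primaries. Dclk1, a doublecortin-like kinase, went from 188 ± 42.4 to 332 ± 56.0 CPM (log2 change 0.82, edgeR adjusted p = 0.0331) and stood at 341 ± 64.5 CPM in metastases (log2 change 0.86, edgeR adjusted p = 0.0254). These calls were lost in 7 and 3 of 13 fits without 1 library. Cdk5r1, the p35 activator of Cdk5, fell from 77.1 ± 20.4 to 42.0 ± 3.94 CPM (edgeR adjusted p = 0.0418, lost in 9 of 13 such fits).

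Of 8 other LDL receptor family genes, relatives of Vldlr and Lrp8, none was called in the 3 comparisons in the main edgeR fit. Sorl1, a sorting receptor, had the smallest p in KO primaries, at 11.9 ± 3.44 against 26.5 ± 8.07 CPM (edgeR adjusted p = 0.0613). It was called in 5 of 9 alternative fits, among them the fit without the 4 libraries of high background (edgeR adjusted p = 0.00712). Lrp1 had the smallest p in metastases against control primaries, at 43.8 ± 9.22 against 75.2 ± 23.9 CPM (edgeR adjusted p = 0.0878, called in 2 of 9 alternative fits). Of the 3 BRINP genes, which share the membrane-attack domain of the astrotactins, Brinp1 stood at 15.6 ± 5.29, 8.39 ± 2.68 and 5.83 ± 2.39 CPM in the 3 groups. It fell in metastases against control primaries (log2 change -1.42, SE 0.344, edgeR adjusted p = 0.0387), a call lost in 10 of 13 fits without 1 library.

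Of 20 genes of glial-guided granule cell migration, 5 fell and 1 rose in KO primaries, and 3 fell and 1 rose in metastases against control primaries (median log2 changes -0.34 and -0.14). Cxcl12, a chemokine that holds precursors under the meninges, fell from 32.7 ± 6.91 to 12.5 ± 1.02 and 10.6 ± 2.08 CPM (edgeR adjusted p = 0.00132 and 6.07e-04). Cntn2, the axonal adhesion protein TAG-1 of early granule neurons, also listed among differentiating granule neuron markers, fell from 578 ± 254 to 99.7 ± 29.8 CPM in KO primaries (log2 change -2.54, edgeR adjusted p = 0.00895). L1cam, another adhesion molecule, fell from 21.5 ± 8.89 to 3.54 ± 1.47 and 2.47 ± 1.47 CPM (edgeR adjusted p = 0.0101 and 0.00405). Its call in KO primaries was lost without KO primary 4 (edgeR adjusted p = 0.0539). Tiam1, a Rac activator, rose in metastases from 16.4 ± 1.67 to 40.1 ± 13.5 CPM (log2 change 1.29, edgeR adjusted p = 0.00276). The other called genes of this list, named after their values were seen, were Pard6a and Ntrk2 lower and Plxna2 higher in KO primaries and Ntrk2 lower in metastases. With only the 2 controls of low Xist level, 4 of the 22 calls on the genes named here were kept: Clu in KO primaries, Dlg4 in both comparisons and Cxcl12 in metastases.

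**Figure D5:**
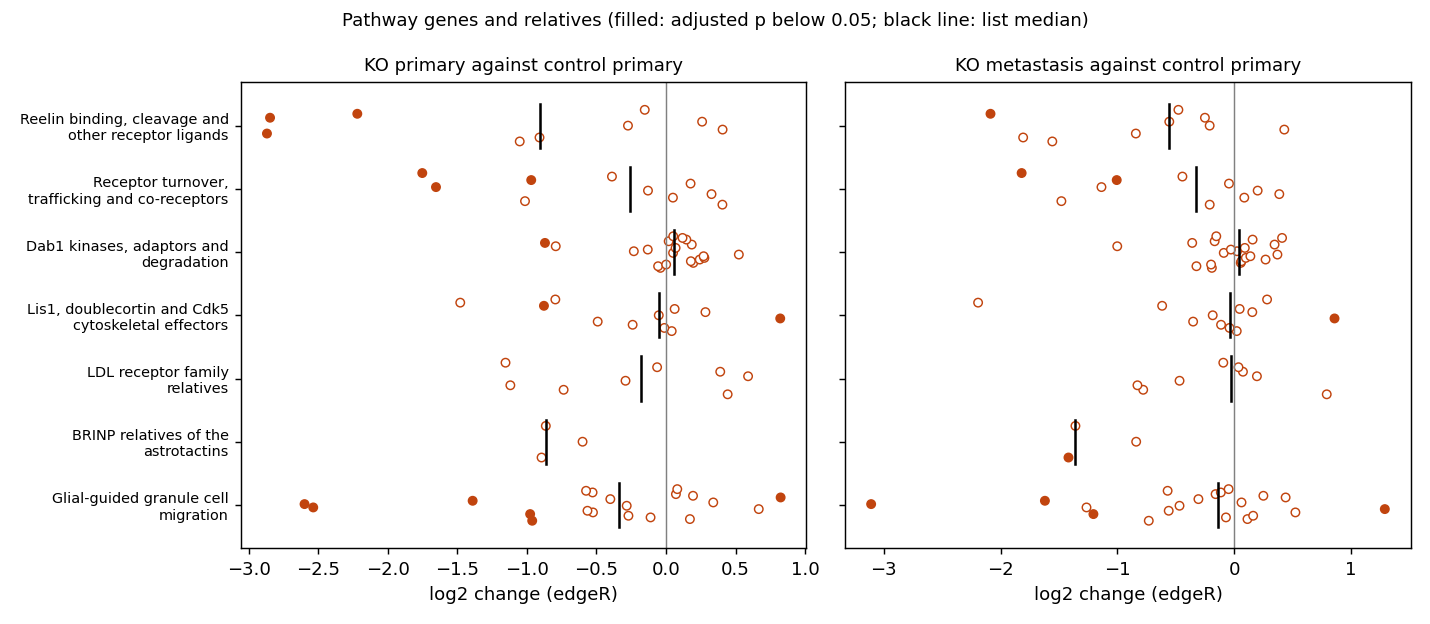
Log2 change of each gene of the 7 pathway lists in KO primary (left) and KO metastasis (right) against control primary, from edgeR; filled points have an adjusted p below 0.05 and black lines mark list medians. Filled points lie mostly left of 0, with 13 lower and 2 higher genes in KO primaries and 7 lower and 2 higher in metastases. Over all tested genes 1.78% were called lower and 1.15% higher in KO primaries, and 2.02% and 1.06% in metastases.

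The cells had been sorted for GFP, which should leave out cells without it, and the sources used here do not say which cell types carried GFP. The granule precursor genes Atoh1 and Barhl1 stood at 309 to 861 and 531 to 1588 CPM over the 13 libraries, so both were present in every library. Of 10 Purkinje cell markers, the neurons that answer reelin through Vldlr and Dab1, 7 were tested. Foxp2 was called higher in both comparisons with control primaries and none was called lower. The shares of all tested genes called higher there were 1.15% in KO primaries and 1.06% in metastases. In each comparison 1 of the 7 had a positive log2 change, and the medians were -0.27 and -0.94. The sum of the 10 markers, led by Foxp2 and Itpr1, was 88.4 to 126 CPM in controls, 141 to 147.5 in KO primaries and 126 to 142.8 in metastases. Foxp2 alone had means of 52.45, 100.2 and 91.1 CPM in the 3 groups. The part of Purkinje cell RNA in the Vldlr level was not tested. The more restricted markers were low: Pcp2 was at 0.180 CPM or below, Skor2 at 0.190 or below and Calb1 at 4.03 or below in every library. Slc32a1, the transporter of GABAergic neurons, had 0 counts in 12 libraries. It was 1 of 10 GABAergic interneuron markers, of which 4 were tested. Pvalb was called higher in both comparisons with control primaries, with means of 14.4, 43.2 and 63.8 CPM in the 3 groups, and none was called lower. In each comparison 1 of the 4 had a positive log2 change, and the medians were -0.93 and -1.18. Kit, also on that list, had means of 39.7, 24.7 and 20.9 CPM. Of the markers of differentiating granule neurons, cells that express reelin and astrotactins, 9 of 14 were lower in KO primaries against control primaries. In metastases against control primaries 7 of 14 were lower. Over all tested genes the shares called lower were 1.78% and 2.02%. The 14 markers had median log2 changes of -1.06 and -0.79. Their summed level was 2849 to 4368 CPM in controls, 1554 to 1902 in KO primaries and 1722 to 3427 in metastases, and its part in the levels of Reln and Astn2 was not tested.

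Astrocyte and Bergmann glia markers summed to 709.7 to 939.5 CPM in controls, 790.1 to 1318 in KO primaries and 789.4 to 1458 in metastases. Against control primaries, 3 of the 12 had a positive log2 change in KO primaries and 5 of the 12 in metastases. The medians were -0.53 and -0.16. The 2 most abundant, Sox9 and Slc1a2, went different ways in KO primaries. Sox9 had means of 287, 620 and 512 CPM in the 3 groups, and Slc1a2 209, 133 and 195 CPM. The lowest sums of the knockout libraries were in KO primary 7 and KO metastasis 7, which also had the lowest Vldlr levels. Both were libraries of high receptor background. The highest sums were in KO primary 4 and KO metastasis 4, while Vldlr was highest in replicate 3 of each group. Of the 12 listed, Sox9 rose and Aqp4 fell in KO primaries, where 1.15% of all tested genes were called higher and 1.78% lower. Gfap stood at 55.6 to 84.8 CPM in controls and 25.5 to 100.2 in KO primaries. The part of glial RNA in the Vldlr level was not tested. Between metastases and KO primaries the 1 gene called of all 22265 was Mbp, a myelin gene, at 134 to 406 against 38.9 to 55.9 CPM.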

How the data were processed

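The values used are raw gene-level read counts, as deposited by the authors, not normalized. STAR 2.4, HTSeq 0.6.1, DESeq2 and mm10 are listed in the submitters' processing notes, without roles. The sources used here give neither the strand setting nor the annotation release. Per the labels' protocols, papain was used for dissociation, sorting was for GFP, and TruSeq RNA libraries started from sorted pellets (primary tumours, 1 to 5 M cells; metastases, 0.1 to 3 M).

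One model over all libraries was fitted in edgeR 4.0.16 (R 4.3.3): filterByExpr (minimum count 10, minimum total 15), TMM scaling and quasi-likelihood F tests for 3 groups, with Benjamini-Hochberg adjustment over the 22265 genes tested. A gene was called at an adjusted p below 0.05. SDs are over libraries, SEs are of the fitted coefficient, and precision is set by the number of libraries. Levels per kilobase used the union of exons in GENCODE M21 (GRCm38). The fit was tested on simulated counts: of 100 genes changed 2-fold, 38, 32 and 44 were recovered in KO primary against control primary, KO metastasis against KO primary and KO metastasis against control primary (20094, 20137 and 20124 genes). For 4-fold changes 78, 68 and 73 of 100 were recovered. Alternatives were RLE scaling, DESeq2 1.42.0, limma voom 3.58.1 with quality weights, no filter, fits of 2 groups, a replicate block and each library left out. Others were fits without libraries above 100 receptor CPM, with that level as a covariate or without 3 controls of high Xist level (above 100 CPM).

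Named genes were the 6 members, Kmt2d, up to 3 called genes of each pathway list and comparison (or the 1 with the smallest p), the 3 genes most like each member (1 of them is not reported here) and markers. Members and lists were chosen with earlier results of these data known. The transcript-length alternative was added after the data were seen.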

Additional observations from a re-analysis of the deposited data

Results flagged for a closer look

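Of 18 sets of libraries (6 genes in 3 groups), 4 held a library far from the others by Dixon's test at the 95% level, where chance flags about 1 in 20. Reln in control primary 3 stood at 163.5 CPM, with the next control at 279 CPM (gap over range 0.719). Dab1 in KO metastasis 7 stood at 6.85 CPM, with the next metastasis at 11.8 CPM (0.923). Lrp8 in KO metastasis 4 stood at 52.01 CPM, with the next at 21.8 CPM (0.896). Astn1 in KO metastasis 4 stood at 64.03 CPM, with the next at 47.2 CPM (0.858).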

How the results depend on the processing

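Of 22 calls on named genes, 22 were kept under RLE scaling, DESeq2, limma voom, without the libraries above 100 receptor CPM and with the receptor level as a covariate. Without a filter 21 were kept, in fits of 2 groups 20, with the replicate block 17 and without the 3 controls of high Xist level 4. None changed sign. The sources used here do not say whether equal replicate numbers mark the same mouse. Deviations from group means correlated at 0.356, 0.488, -0.005 and 0.675 between KO primary and KO metastasis replicates 3, 4, 6 and 7. The highest correlations of these metastases with a KO primary of another number were 0.354, 0.52, 0.686 and -0.105. Replicate 3 was level with another number, replicates 4 and 6 were closer to another, and replicate 7 was closest to its own. KO primary 7 and KO metastasis 7 both had high receptor background. A pairing was neither established nor set aside. Some genes were called only under alternatives, and the cause was not tested.

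For KO primary against control primary, Reln was called at -0.76 by DESeq2, -0.93 by voom and -0.96 without high-background libraries (-0.87 to -0.58 with each library left out). Astn2 was called at -1.13 by DESeq2, -1.37 by voom, -1.03 with the replicate block (edgeR adjusted p = 0.0123) and -1.62 without high-background libraries (-1.45 to -0.95). Vldlr stood at 1.93 without Xist controls, uncalled (1.43 to 2.02). Uncalled genes changed sign: Astn1 to -0.06 by voom and -0.02 without high-background libraries (-0.0019 to 0.32), and Kmt2d to 0.02 with the block and 0.37 without Xist controls (-0.34 to 0.01). Genes called higher (257) and lower (396) numbered 670 and 960 by DESeq2, 1636 and 1631 by voom, 548 and 879 without high-background libraries, 464 and 626 with the covariate and 60 and 78 without Xist controls (94 to 392 and 183 to 640).

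For KO metastasis against KO primary, Reln turned to -0.00031 by voom, Astn1 to 0.0032 in the fit of 2 groups and 0.11 without high-background libraries, and Astn2 to 0.18 by voom, all uncalled. With each library left out Vldlr ranged from -0.52 to 0.06, Astn1 from -0.18 to 0.11 and Astn2 from -0.31 to 0.18. Genes called higher (1) numbered 27 by DESeq2, 2 without a filter, 5 without high-background libraries and 0 in the fit of 2 groups, with the replicate block, with the covariate and without Xist controls (0 to 2); by edgeR 720 had an unadjusted p below 0.05. Genes called lower (0) numbered 7 by DESeq2 and 1 by voom.

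For KO metastasis against control primary, Vldlr stood at 1.63 without Xist controls, uncalled (1.26 to 1.71), and Reln was called by voom at -0.93. Astn2 was called at -1.27 by DESeq2 and, at the threshold, with RLE (edgeR adjusted p = 0.049996), -1.18 by voom, -1.28 without a filter and in the fit of 2 groups, -1.13 with the replicate block (edgeR adjusted p = 0.0081), -1.68 without high-background libraries and -1.32 with the covariate (-1.46 to -1.11). Uncalled genes changed sign: Dab1 to 0.27 with the block, 0.05 with the covariate and 0.51 without Xist controls (-0.23 to 0.33), Lrp8 to -0.17 by voom (-0.33 to 0.37), Astn1 to -0.10 by voom (-0.04 to 0.31) and Kmt2d to 0.06 with the block and 0.41 without Xist controls (-0.24 to 0.05). Genes called higher (235) and lower (450) numbered 719 and 956 by DESeq2, 2318 and 1504 by voom, 581 and 693 without high-background libraries and 44 and 56 without Xist controls, and 432 were higher with the covariate (125 to 428 and 244 to 771).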
